A study of Mus musculus with 18 samples.

Results

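The genes described here are those of red cell maturation in the mouse spleen: the transcription factors and the cytokine receptor that direct it, the enzymes and carriers of heme synthesis, the proteins of the red cell membrane and its skeleton, the blood group proteins on the surface, and genes of the last maturation steps. They were chosen by name and by role, with the globin genes left out. Of 34 genes on the list, 33 were in the expression table of 19320 genes, and the remaining gene was not analysed here. All 33 were protein coding, lay on 15 chromosomes and passed the filter on low values, and their lowest value in any library was 2.30 RPKM (reads per kilobase of transcript, divided by the library's mapped reads).

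RNA was sequenced from spleens of male ICR mice aged 10 weeks, with 18 libraries in 6 groups of 3. Con mice were controls and A10 mice received alginate oligosaccharide (AOS), a sugar chain from brown algae, at 10 mg/kg. STZ mice received streptozotocin, a toxin of the insulin-producing cells of the pancreas that is used as a model of type 1 diabetes, and STZ-A10 mice received streptozotocin and AOS at 10 mg/kg. A10-FMT mice received streptozotocin and a gut microbiota transplant from donors given AOS at 10 mg/kg, and Con-FMT mice received streptozotocin and a transplant from control donors. The transplanted material was small intestinal content pooled over the donors of each kind, so all A10-FMT mice shared a single donor pool and all Con-FMT mice another. Streptozotocin was thus given in 4 of the 6 groups and a transplant in 2 of those 4. How A10 and STZ-A10 mice were dosed is known from the labels alone.

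In mice, the spleen makes red cells beside its immune functions, and this output can expand when red cells are short. A progenitor that receives erythropoietin divides a few more times while Gata1, Klf1 and Tal1 switch on the genes of heme, globin and membrane, after which the cell condenses its nucleus, expels it and removes its mitochondria. Heme is made by a chain of enzymes that begins and ends inside the mitochondrion, and the red cell membrane is held by a net of spectrin that ankyrin and other linkers fasten to band 3. In whole spleen, fewer erythroid cells and less RNA per cell cannot be told apart.

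Gata1 and Tal1 share DNA sites built on GATA letters, and Klf1 reads sites built on CACCC letters, so upstream sequence is shown for 4 members that the results turn on: Alas2 and Klf1, the most abundant heme and regulator genes, Rhag, whose level differed most between STZ and Con among the surface genes, and Tspo2, which varied most between groups. Sequences are RefSeq upstream windows on GRCm38.p6, printed 5′ to 3′ on the strand of the gene and ending just before the gene's first annotated base. The windows are chrX:150547225-150547374 for Alas2 (plus strand), chr8:84901778-84901927 for Klf1 (plus), chr17:40810976-40811125 for Rhag (plus) and chr17:48451523-48451672 for Tspo2 (minus). Capitals mark matches on either strand to a GATA motif, which is AGATAA and AGATAG and TGATAA and TGATAG taken as alternatives, or to a CACCC-like motif, which is CCNCNCCC.
Alas2: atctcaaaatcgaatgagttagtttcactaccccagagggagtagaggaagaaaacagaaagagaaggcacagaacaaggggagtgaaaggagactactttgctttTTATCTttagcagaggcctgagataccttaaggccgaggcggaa
Klf1: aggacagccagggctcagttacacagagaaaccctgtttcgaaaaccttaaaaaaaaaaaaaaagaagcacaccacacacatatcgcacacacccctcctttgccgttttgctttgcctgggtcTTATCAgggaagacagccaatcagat
Rhag: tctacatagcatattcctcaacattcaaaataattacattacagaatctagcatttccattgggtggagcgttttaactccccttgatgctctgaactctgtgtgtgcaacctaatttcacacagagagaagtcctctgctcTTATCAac
Tspo2: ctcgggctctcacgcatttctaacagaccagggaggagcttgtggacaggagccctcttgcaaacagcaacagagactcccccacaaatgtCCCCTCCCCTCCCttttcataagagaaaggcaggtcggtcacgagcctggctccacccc
The first 3 windows each hold a GATA match and the Tspo2 window holds a pair of overlapping CCNCNCCC matches. Alas2 also held 4 CCNCNCCC matches in the 250 bases upstream, none of them in the window printed. Over the 250 bases upstream, 53.3% of the 30 promoters of the 25 members in the promoter table held a GATA match, against 26.5% of all 32851 promoters. CCNCNCCC occurred in 53.3% of the member promoters against 45.9% of all promoters, and both kinds occurred in 16.7% against 8.2%. These are matches of letters, not measured binding sites.

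The 33 genes moved together across the libraries. On the log2(RPKM + 1) scale the SD over the 18 libraries had a median of 0.57 over the members (0.34 to 0.79), against 0.23 over the 12905 genes tested. Measured against the median of 51 other erythroid genes in each library, the members' SD had a median of 0.33 (0.14 to 0.54). Against the median of the 33 genes themselves, which lowers the SD by construction, it had a median of 0.17, and Tspo2 had the highest value at 0.44. Much of the variation lay within groups. The share of a member's variance that lay between the 6 groups had a median of 38.3%, against 43.1% over all genes tested, and ran from 17.4% for Bpgm to 73.8% for Tspo2.

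The libraries can be placed by the median of the 33 genes, each taken as its log2 difference from its own mean over the 18 libraries. In Con the medians were 0.39, -0.01 and -0.31 for replicates 1 to 3. In A10 they were -0.50, -0.29 and -0.81, so all 3 libraries lay below the overall mean. In STZ they were -0.73, 0.47 and 0.54, and in STZ-A10 -0.96, 0.14 and 0.35, so each of these groups held 1 low library and 2 high ones. In A10-FMT they were 0.57, 0.07 and 1.15, all above the mean, and in Con-FMT 0.02, 0.04 and -0.11, the tightest group. In the plot of all members by library, A10-FMT replicate 3 stands apart at the top, and STZ-A10 replicate 1, A10 replicate 3 and STZ replicate 1 lie at the bottom.

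**Figure D1:**
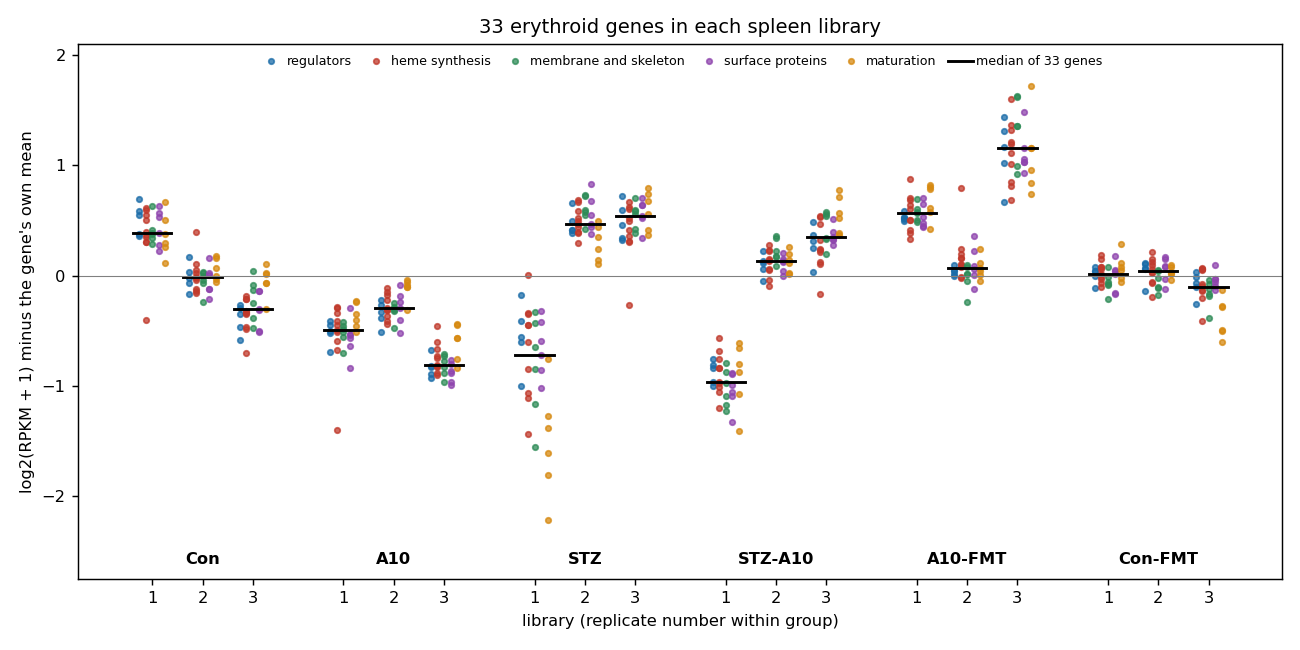
Log2(RPKM + 1) of each of the 33 genes minus that gene's mean over 18 libraries, by library; points are genes coloured by role and black bars are the median of the 33 genes. A10-FMT replicate 3 has the highest median (1.15) and STZ-A10 replicate 1 the lowest (-0.96). In STZ replicate 1 the maturation genes have the lowest median of the roles (-1.496), and their points overlap with those of other roles.

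The extremes of the order were shared by many of the genes. A10-FMT replicate 3 was the highest library for 32 of the 33 genes, the exception being Bpgm, which was highest in STZ-A10 replicate 3. STZ-A10 replicate 1 was the lowest library for 17 genes, STZ replicate 1 for 11, A10 replicate 3 for 4 and A10 replicate 1 for Tspo2. Within A10-FMT all 33 genes had the same order of libraries, in Con, A10 and STZ-A10 30 or 31 did, and in STZ and Con-FMT 17 and 15 did. All 33 genes had their highest group mean in A10-FMT and their lowest in A10. Since the genes follow a common course, these counts are not 33 separate observations.

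Other transcripts moved with them. The 33 genes summed to 0.322% to 1.10% of all RPKM of a library, and the globin genes to 10.4% to 42.7%. STZ replicate 1, the library with the least globin, ranked 17th in the summed level of the members, and A10-FMT replicate 3 ranked first in both. In A10-FMT replicate 3 the sum of 8 B cell genes was 576 RPKM and that of 8 T cell genes 71.7 RPKM, the lowest of all libraries, and the sum of 20 proliferation genes was 3667 RPKM, the highest. In the other 17 libraries the B cell sum was 1402 to 2707 RPKM. The part of these markers in the members' differences was not tested. Liver, exocrine pancreas and testis genes were also present in some libraries, at sums of 4.45 to 305 RPKM, 21.9 to 15173 RPKM and 0.22 to 259 RPKM, with the pancreas sum highest in A10-FMT replicate 2.

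**Figure D2:**
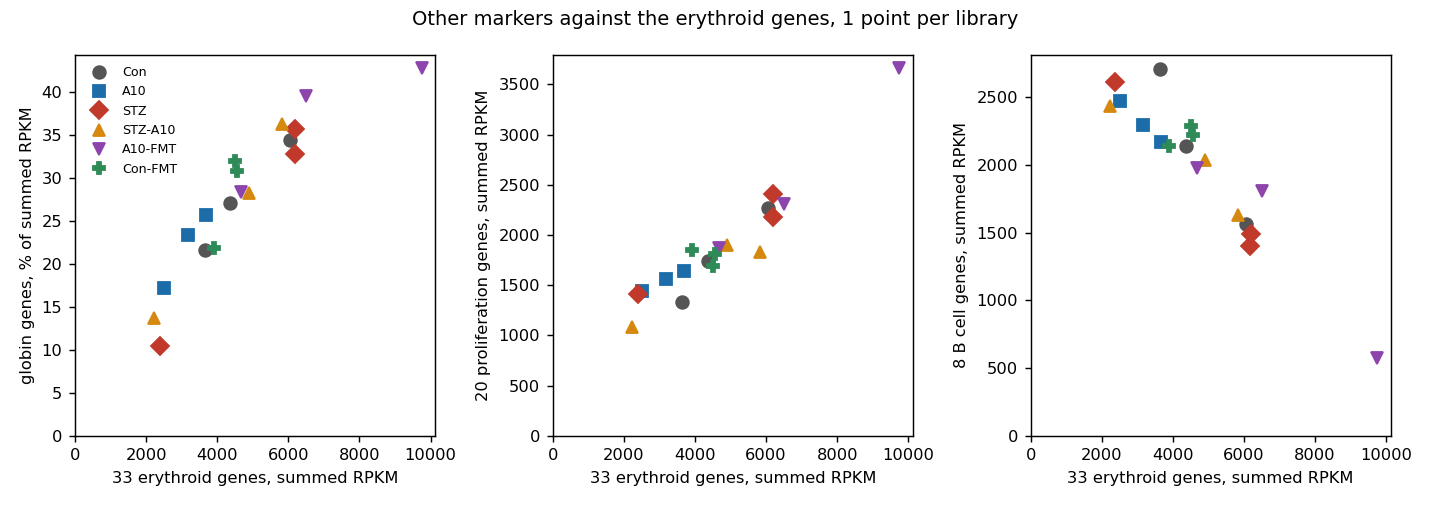
Summed RPKM of the 33 erythroid genes in each library (x axis) against the globin share of all RPKM in percent and the summed RPKM of 20 proliferation genes and of 8 B cell genes (y axes); symbols are groups. A10-FMT replicate 3 lies alone at the right with 9750 RPKM of the 33 genes and 576 RPKM of the B cell genes.

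Among the regulators, Gata1, the zinc finger factor of the erythroid and megakaryocyte lineages, Tal1, its basic helix-loop-helix partner, Nfe2, a leucine zipper factor of the same lineages, and Epor, the erythropoietin receptor, had mean levels of 79.8, 60.8, 89.7 and 51.6 RPKM. The most abundant of the 5 was Klf1, the factor that activates adult beta-globin, at 151 RPKM. Klf1 measured 181, 138 and 114 RPKM in Con and 98.6, 107 and 74.9 RPKM in A10. It measured 95.4, 187 and 213 RPKM in STZ and 69.5, 136 and 175 RPKM in STZ-A10. In A10-FMT the values were 211, 146 and 350 RPKM, and in Con-FMT 148, 147 and 134 RPKM. The A10 values all lay under the lowest Con value, and the STZ and A10-FMT values spread over a range wider than the distance between their means.

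In heme synthesis, Alas2, the erythroid enzyme that starts the pathway and sets its rate, was the most abundant of all 33 genes at a mean of 643 RPKM, and the gene lies at chrX:150547375-150570638 (GRCm38, plus strand). It measured 862, 596 and 468 RPKM in Con, 466, 519 and 330 RPKM in A10, 217, 774 and 896 RPKM in STZ, 282, 644 and 856 RPKM in STZ-A10, 917, 674 and 1272 RPKM in A10-FMT, and 672, 682 and 442 RPKM in Con-FMT. STZ replicate 1 had the lowest Alas2 value of all libraries, at 5.86 times less than A10-FMT replicate 3. The enzymes that follow had means of 383 (Alad), 73.4 (Uros), 150.5 (Urod), 137 (Cpox), 86.5 (Ppox) and 222 RPKM (Fech, which puts the iron into the ring). The mitochondrial iron importer Slc25a37 stood at 367 RPKM and Slc25a38, a glycine carrier of the mitochondrion, at 62.8 RPKM. Slc25a38 was the steadiest of the 33 genes, with a 2.62-fold range over the libraries.

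Tspo2, an erythroid member of the translocator protein family, was the exception among the heme genes. It measured 16.7, 29.8 and 13.4 RPKM in Con, 7.84, 17.1 and 14.4 RPKM in A10, 22.4, 32.1 and 35.1 RPKM in STZ, 12.1, 23.2 and 19.8 RPKM in STZ-A10, 42.1, 39.7 and 57.5 RPKM in A10-FMT, and 21.3, 21.3 and 23.4 RPKM in Con-FMT. All 3 A10-FMT values lay above every value of the other groups. In A10-FMT replicate 2, where the median of the 33 genes was close to the overall mean, Tspo2 stood 0.73 above that median on the log2 scale, and in STZ replicate 1 it again stood 0.73 above. In Con replicate 1 its log2 deviation from its own mean was -0.40 where the median of the 33 genes was 0.39, and in A10 replicate 1 it was -1.41 where the median was -0.50. Of the 33 genes, Tspo2 came nearest to the threshold in the test across all groups (F test of limma, adjusted p = 0.0665) and did not pass the threshold.

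In the membrane and its skeleton, Slc4a1, the anion exchanger called band 3, measured 589, 428 and 403 RPKM in Con, 314, 354 and 247 RPKM in A10, 196, 643 and 667 RPKM in STZ, 195, 564 and 639 RPKM in STZ-A10, 672, 446 and 1127 RPKM in A10-FMT, and 415, 433 and 391 RPKM in Con-FMT. Its A10 values lay below all Con values and its A10-FMT values above all Con-FMT values, and the STZ and STZ-A10 values ran from under the A10 level to above the Con level. The skeleton genes stood far lower, at means of 50.9 (Epb42, protein 4.2), 31.5 (Sptb, beta-spectrin), 58.4 (Ank1, ankyrin), 101.1 (Gypc, glycophorin C) and 36.9 RPKM (Add2, beta-adducin). Epb42 ranged 9.65-fold, from 14.6 RPKM in STZ replicate 1 to 141 RPKM in A10-FMT replicate 3.

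Among the surface proteins, Aqp1, the water channel, measured 247, 195 and 193 RPKM in Con, 146, 172 and 114 RPKM in A10, 140, 294 and 332 RPKM in STZ, 114, 233 and 268 RPKM in STZ-A10, 295, 226 and 433 RPKM in A10-FMT, and 218, 224 and 207 RPKM in Con-FMT. It too had A10 values below all Con values and A10-FMT values above all Con-FMT values. Rhd and Rhag, of the Rhesus complex, had means of 178.5 and 97.9 RPKM, and Kel, Ermap and Icam4, which carry other blood groups, had means of 132, 92.6 and 28.0 RPKM.

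Among the maturation genes, Bpgm, whose product makes the phosphate compound that loosens oxygen from hemoglobin, and Bnip3l, which marks mitochondria for removal, had means of 147 and 124 RPKM. Xpo7, a nuclear export receptor, Trim10 and Trim58, of a ubiquitin ligase family, had means of 85.1, 98.9 and 7.60 RPKM. Tmcc2, the most abundant of the 6, measured 205, 161 and 138 RPKM in Con, 101.2, 136 and 80.5 RPKM in A10, 30.4, 204 and 241 RPKM in STZ, 68.2, 156 and 238 RPKM in STZ-A10, 250, 171 and 323 RPKM in A10-FMT, and 152, 153 and 118 RPKM in Con-FMT. The value in STZ replicate 1 was less than that of any other library, and the other STZ values were near the highest Con value. Trim10 and Tmcc2 had the widest ranges of the 33 genes, at 11.9-fold and 10.7-fold.

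**Figure D3:**
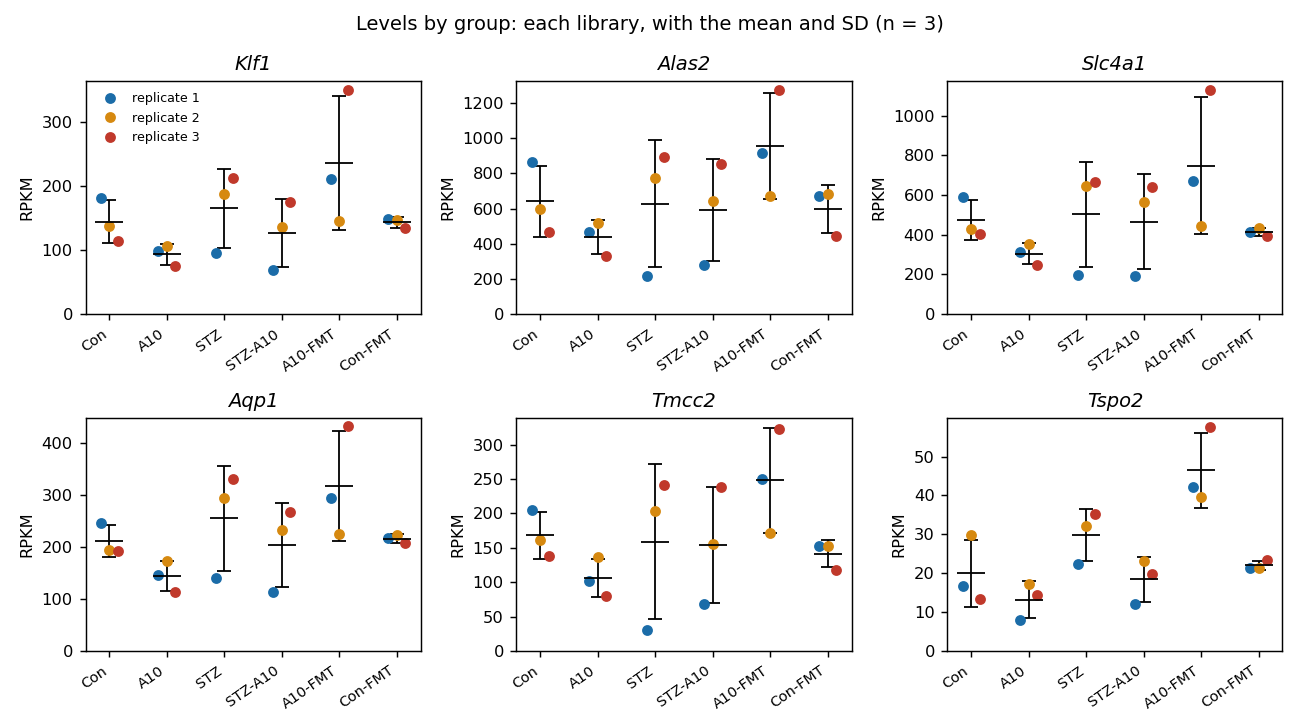
RPKM of the most abundant gene of each role and of Tspo2 in the 6 groups; points are libraries coloured by replicate number, horizontal bars are group means and vertical bars the SD (n = 3). Tspo2 in A10-FMT (39.7 to 57.5 RPKM) lies above every other library, whereas the other 5 genes overlap between A10-FMT and STZ.

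STZ replicate 1 differed from the other low libraries in which genes were low. There the median log2 deviation was -0.55 over the regulators, -0.53 over the heme genes, -0.75 over the membrane and skeleton genes, -0.66 over the surface genes and -1.496 over the maturation genes. In STZ-A10 replicate 1, the lowest library by the median of all members, the medians of the 5 roles lay between -0.84 and -1.03. Within STZ replicate 1 the deviations ran from -2.21 (Tmcc2), -1.81 (Trim10), -1.61 (Xpo7) and -1.56 (Epb42) to -0.17 (Gata1) and 0.001 (Tspo2), a span of 2.21. In the other 17 libraries the span was 0.41 to 1.17. The roles overlapped in STZ replicate 1, where Alas2 (-1.44), Slc4a1 (-1.17), Slc25a37 (-1.115) and Fech (-1.06) were lower than the maturation gene Bnip3l (-0.76). The maturation genes had the lowest median of the roles in some other libraries too, by smaller gaps. In Con-FMT replicate 3 it was -0.39, with the other roles at -0.145 to -0.045. In STZ replicate 2 it was 0.293, with the other roles at 0.414 to 0.585. A gap of the size seen in STZ replicate 1 rests on 1 library.

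**Figure D4:**
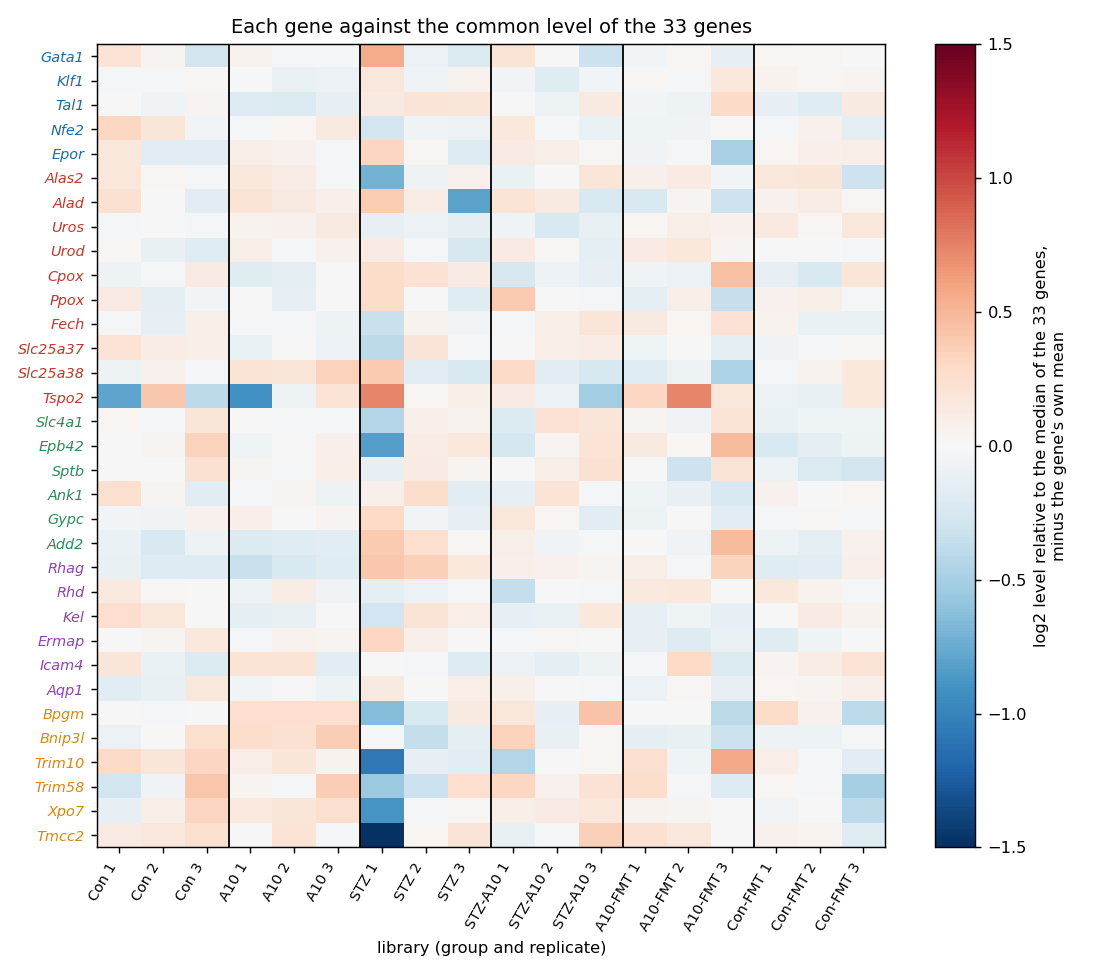
Log2 level of each of the 33 genes (rows, coloured by role) relative to the median of the 33 genes in the same library, minus the gene's own mean, in the 18 libraries (columns). STZ replicate 1 is blue for Tmcc2 (-1.49), Trim10 (-1.08) and Xpo7 (-0.89) and red for Tspo2 and Gata1, and most other cells are pale.

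No member passed the threshold in any comparison. The tests were made with limma on all 18 libraries, and p-values were adjusted by the Benjamini-Hochberg method over the 12905 genes tested, with a threshold of 0.05. Across the 6 groups, 0 of 33 members passed the F test, against 0.449% of all genes, and 5 reached an unadjusted p below 0.05 (Gata1, Urod, Tspo2, Add2 and Rhag), against 22.6% of all genes. The 95% confidence interval of a log2 fold change between 2 groups had a median half-width of 0.83 over the members. A change of less than about that size was not detectable in most of them. The interval is not adjusted for the number of genes tested, so larger changes could also miss the threshold. Tspo2 in A10-FMT against Con-FMT missed it at a log2 fold change of 1.03 (adjusted p = 0.204 by limma).

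The effect of streptozotocin is addressed by STZ against Con. The median log2 fold change of the members was 0.02, against -0.01 over all genes tested, and 17 of 33 were above 0. In the limma fit 0 members had an adjusted p below 0.05 (0.163% of all genes did), 0 had an unadjusted p below 0.05 (11.1%) and 0 had groups that did not overlap (12.8%). The 3 members that differed most were Trim10 (-0.65, SE 0.56, adjusted p = 0.758), Tspo2 (0.61, SE 0.31, adjusted p = 0.500) and Rhag (0.55, SE 0.38, adjusted p = 0.677). All 6 maturation genes had fold changes below 0, with a median of -0.25, and 4 of the 5 regulators had fold changes above 0, with a median of 0.17. The maturation values rest on STZ replicate 1. Without it all 33 genes were above 0 with a median of 0.44, Trim10 stood at 0.07, 0 members passed the threshold and 2 reached an unadjusted p below 0.05. Platelet genes, which share Gata1, Tal1 and Nfe2 with the erythroid lineage, were lower in STZ in 14 of 14, all at an unadjusted p below 0.05 and 2 past the threshold (sums of 271 to 784 RPKM in STZ and 901 to 2242 RPKM in Con). At an unadjusted p below 0.05, 8 of 8 neutrophil genes, 6 of 7 liver genes and all 4 testis genes tested were also lower in STZ, the testis gene Tnp1 past the threshold, and 9 of 13 red pulp macrophage genes and 3 of 7 exocrine pancreas genes were higher. The part of these cells and tissues in the members' values was not tested.

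The same effect in mice given AOS is addressed by STZ-A10 against A10. All 33 fold changes were above 0, with a median of 0.35 against -0.03 over all genes tested, and a range of 0.08 to 0.69. At the threshold of limma 0 members were called (0.0542% of all genes were), 0 had an unadjusted p below 0.05 (10.2%) and 0 had groups that did not overlap (22.6%). Rhag (0.69, SE 0.38, adjusted p = 0.584), Tal1 (0.57, SE 0.40, adjusted p = 0.707) and Add2 (0.56, SE 0.38, adjusted p = 0.684) differed most. Without STZ-A10 replicate 1 the median was 0.78. Exocrine pancreas genes were higher in STZ-A10 in 7 of 7, 5 of them at an unadjusted p below 0.05 (sums of 3897 to 6002 RPKM in STZ-A10 and 38.9 to 582 RPKM in A10), as were red pulp macrophage genes in 13 of 13 with 6 at that level, while 8 of 8 T cell genes were lower with 2 at that level, and 3 of 7 liver genes and 2 of 14 platelet genes were lower at that level. Their part in the members' shift was not tested. The interaction of STZ and AOS, the difference between this effect and that in mice without AOS, had a median of 0.32 over the members against -0.02 over all genes. Here limma called 0 members (0% of all genes) and gave 0 an unadjusted p below 0.05 (2.86%). Its largest values were those of Tmcc2 (0.92, SE 0.84), Trim10 (0.78, SE 0.79) and Slc25a37 (0.65, SE 0.60), each with an adjusted p of 0.9999 by limma. Without STZ replicate 1 the median was -0.09 and Tmcc2 stood at -0.03.

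The effect of AOS without streptozotocin is addressed by A10 against Con. All 33 fold changes were below 0, from -0.78 to -0.29, with a median of -0.57 against 0.05 over all genes tested. For 19 of the 33 members all A10 libraries lay below all Con libraries, which held for 4.81% of all genes. The 19 were 5 of the 6 membrane and skeleton genes, 4 of the 6 surface genes, 4 of the 6 maturation genes, 4 of the 10 heme genes and 2 of the 5 regulators. Over the 33 members, limma called 0 (0.00775% of all genes), and 0 had an unadjusted p below 0.05 (5.25%). This count depended on the libraries that share the estimate of the spread: fitted on A10 and Con alone, 22 of 33 had an unadjusted p below 0.05, against 9.57% of all genes in either direction, and 0 passed the threshold. Kel had the largest fold change, at 79.3 ± 11.2 RPKM in A10 against 141 ± 45.9 RPKM in Con (SD, n = 3; log2 fold change -0.78, SE 0.44, adjusted p = 0.989). It was followed by Slc25a37 (-0.76, SE 0.43) and Tal1 (-0.73, SE 0.40), both with an adjusted p of 0.989. Leaving out each library in turn moved the median between -0.73 and -0.39. The other erythroid genes had a median of -0.42, with 49 of 51 below 0. Neutrophil genes were also lower in A10, all 8 with an unadjusted p under 0.05 and none with an adjusted p under 0.05, at sums of 780 to 14914 RPKM in Con and 549 to 1402 RPKM in A10, and 4 of 4 testis genes and 2 of 7 liver genes were lower and 1 liver and 2 red pulp macrophage genes higher at an unadjusted p below 0.05. T cell genes were higher in A10 in 8 of 8 and B cell genes in 8 of 8, with 0 of either at that level. Platelet genes were lower in 14 of 14 and proliferation genes in 17 of 20, also with 0 at that level. The part of these genes in the members' difference was not tested.

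The effect of AOS in streptozotocin-treated mice is addressed by STZ-A10 against STZ. The members' median was -0.23, against 0.03 over all genes, and 26 of 33 were below 0, while the 6 maturation genes were all above 0 with a median of 0.15. With limma 0 members passed the threshold (0.00775% of all genes). Only Tspo2 was lower in STZ-A10 at an unadjusted p below 0.05 (1.65% of all genes), and 0 members had groups that did not overlap (8%). Tspo2 measured 18.4 ± 5.73 RPKM in STZ-A10 and 29.9 ± 6.62 RPKM in STZ (log2 fold change -0.70, SE 0.31, adjusted p = 0.996). Cpox (-0.61, SE 0.41) and Rhag (-0.50, SE 0.38) followed, both with an adjusted p of 0.996. The median was -0.65 without STZ replicate 1 and 0.18 without STZ-A10 replicate 1, so its direction turned with a single library. Platelet genes were higher in STZ-A10 in 14 of 14, 2 of them at an unadjusted p below 0.05, and proliferation genes lower in 20 of 20 with 0 at that level. T cell genes were higher in 8 of 8 and B cell genes in 8 of 8, with 0 of either at that level. The part of all these genes was not tested.

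The effect of the transplant from AOS-dosed donors on streptozotocin-treated mice is addressed by A10-FMT against STZ. The study's methods state no mock inoculation for STZ mice. The transplant, its daily oral dosing and its single donor pool therefore cannot be told apart here. All 33 fold changes were above 0, from 0.233 to 1.203, with a median of 0.50 against -0.15 over all genes tested. The limma test called 0 members (0.00775% of all genes). Trim10 alone was higher in A10-FMT at an unadjusted p below 0.05 (1.95% of all genes), and Tspo2 alone had every A10-FMT library above every STZ library (2.33%). Trim10 measured 174.5 ± 102 RPKM in A10-FMT and 81.9 ± 50.2 RPKM in STZ (log2 fold change 1.203, SE 0.56, adjusted p = 0.287). Tmcc2 (1.06, SE 0.59, adjusted p = 0.343) and Epb42 (0.90, SE 0.53, adjusted p = 0.360) came next. Without STZ replicate 1 the median fell to 0.11, with 24 of 33 above 0, and Tmcc2 to 0.11 and Trim10 to 0.48, and leaving out A10-FMT replicate 3 gave a median of 0.27. Liver genes were higher in A10-FMT in 6 of 7, all 6 at an unadjusted p below 0.05 (sums of 79.0 to 305 RPKM in A10-FMT and 4.97 to 6.09 RPKM in STZ), and red pulp macrophage genes were lower in 13 of 13 with 9 at that level (668 to 825 RPKM and 1008 to 1062 RPKM). Proliferation genes were above 0 in 20 of 20 and platelet genes in 14 of 14, with 0 and 3 at that level, and T cell genes were below 0 in 8 of 8 and B cell genes in 7 of 8, with 0 and 1 at that level. Their part in the members' difference was not tested.

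The transplant from control donors is addressed by Con-FMT against STZ, where it likewise cannot be told apart from its oral dosing and its single donor pool. The median was -0.08, against 0.002 over all genes, with 10 of 33 members above 0. No member was called by limma, a count of 0 (0.00775% of all genes), 0 had an unadjusted p below 0.05 (5.24%) and 0 had groups that did not overlap (13.2%). Rhag (-0.51, SE 0.38, adjusted p = 0.969), Tspo2 (-0.40, SE 0.31, adjusted p = 0.969) and Add2 (-0.39, SE 0.38, adjusted p = 0.977) differed most. The STZ libraries ran both above and below the Con-FMT libraries, and without STZ replicate 1 the median was -0.53 with 0 of 33 above 0. Platelet genes were higher in Con-FMT in 14 of 14, 12 of them at an unadjusted p below 0.05, and 4 of 13 red pulp macrophage genes were lower at that level. T cell genes were higher in 8 of 8 and B cell genes in 7 of 8, with 0 and 1 at that level. Proliferation genes were lower in 18 of 20 with 0 at that level. The part of all these genes was not tested.

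The treatment of the donors is addressed by A10-FMT against Con-FMT, which shares the A10-FMT libraries with the comparison against STZ. Each group of recipients had a single donor pool, so the treatment of the donors and the pool cannot be told apart. All 33 fold changes were above 0, from 0.31 to 1.03, with a median of 0.63 against -0.17 over all genes tested. For 17 of the 33 members all A10-FMT libraries lay above all Con-FMT libraries, which held for 5.35% of all genes, and 4 members (Urod, Tspo2, Add2 and Rhag) were higher in A10-FMT at an unadjusted p below 0.05, against 3.49% of all genes. The adjusted p of limma was below 0.05 for 0 members (0% of all genes). Fitted on these groups alone, 16 of 33 had an unadjusted p below 0.05, against 10.7% of all genes in either direction, and 0 passed the threshold. Tspo2 measured 46.4 ± 9.68 RPKM in A10-FMT and 22.0 ± 1.19 RPKM in Con-FMT, with a log2 fold change of 1.03 (95% confidence interval 0.38 to 1.68, SE 0.31, adjusted p = 0.204). Epb42 had a fold change of 0.98 (SE 0.53, adjusted p = 0.243) and Trim10 of 0.89 (SE 0.56, adjusted p = 0.291). With each library centred on its median over all genes, which takes out the shift of -0.17, the members' median was 0.80 here and 0.67 in A10-FMT against STZ. Quantile normalization, which left a median of -0.01 over all genes in both comparisons, gave 0.61 and 0.48. Urod, Rhag and Add2 had fold changes of 0.73, 0.84 and 0.81, with adjusted p of 0.207, 0.208 and 0.210.

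The difference between the transplants depended on the A10-FMT libraries. Leaving out replicate 3 of A10-FMT gave a median of 0.33. Leaving out replicate 2 gave 0.88, and in that fit Tspo2, Rhag and Add2 passed the threshold, as did 20.4% of all genes tested. The T cell genes moved the opposite way, with 8 of 8 lower in A10-FMT at an unadjusted p under 0.05 and none at an adjusted p under 0.05 (sums of 71.7 to 273 RPKM in A10-FMT and 293 to 328 RPKM in Con-FMT). The B cell genes were also lower in 8 of 8 (576 to 1980 RPKM and 2137 to 2287 RPKM), 3 of them at an unadjusted p under 0.05, and the proliferation genes were higher in 20 of 20 (1873 to 3667 RPKM and 1692 to 1854 RPKM), 1 of them at an unadjusted p under 0.05. Liver genes had the largest shift of these lists, higher in A10-FMT in 6 of 7, all 6 at an unadjusted p below 0.05, with a median log2 fold change of 2.24 (sums of 79.0 to 305 RPKM and 7.82 to 34.7 RPKM). The part of these genes in the members' difference was not tested.

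**Figure D5:**
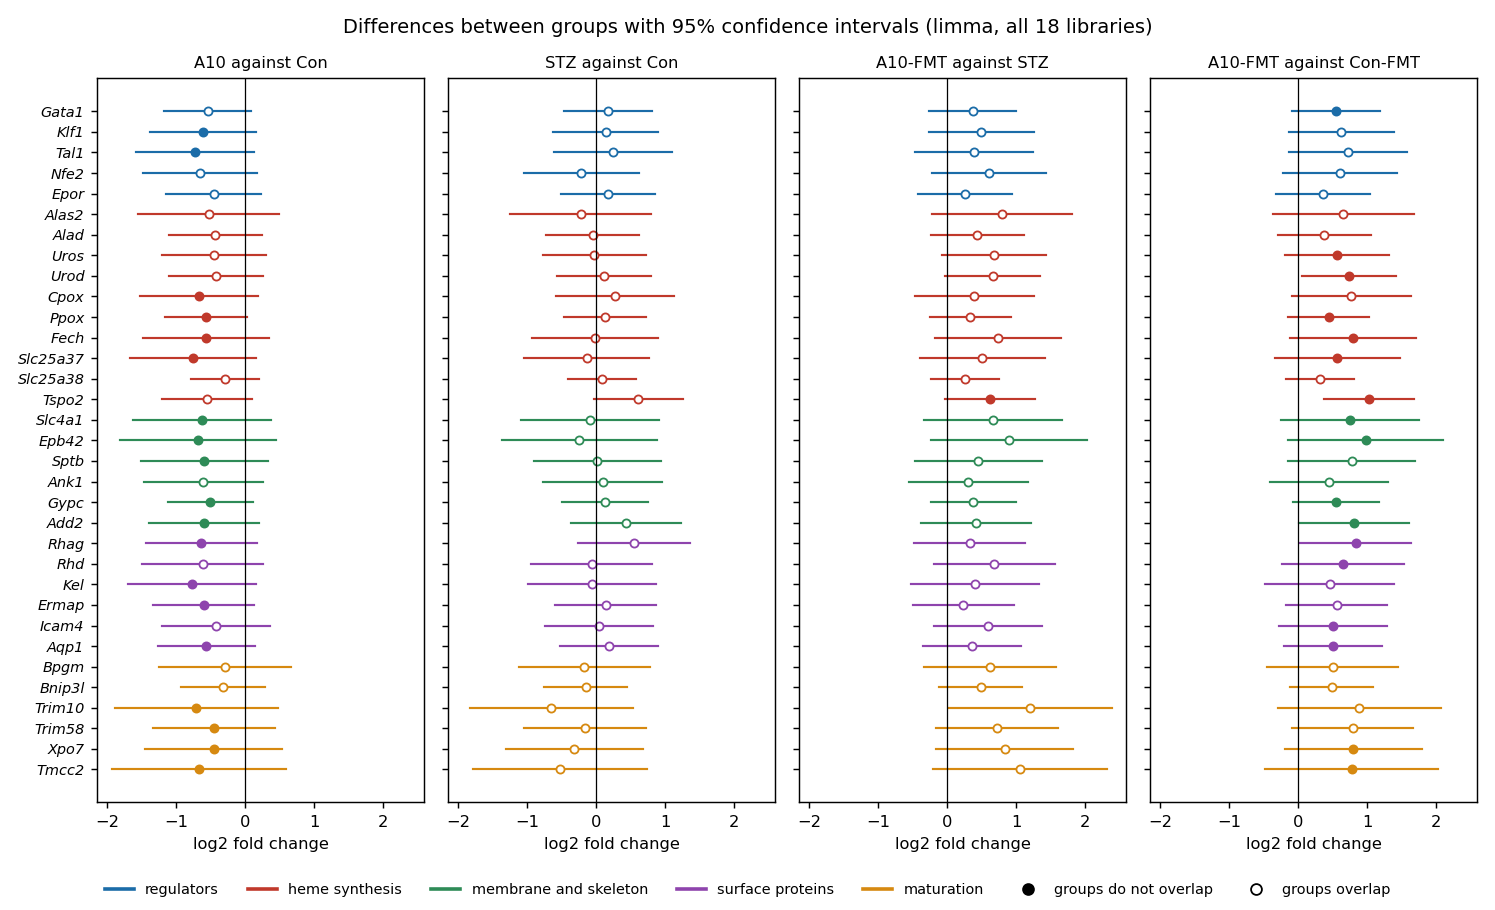
Log2 fold change of each of the 33 genes in 4 comparisons, on the log2(RPKM + 1) scale, with 95% confidence intervals from limma; colours are roles and filled points are genes with no overlap between the libraries of both groups. In A10 against Con all points lie below 0 and in both A10-FMT comparisons all lie above 0, and most intervals include 0.

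The other genes of the pathway were counted from fixed lists in the same tests. Of 10 globin genes 6 passed the filter on low values. Hba-a1, Hbb-b1 and Hbb-b2, whose near-identical copies can share reads, had the highest mean levels. Hbb-bs ran from 5.61 to 54525 RPKM over the libraries and Hbb-bt from 7.67 to 12152 RPKM, and the source of these ranges was not tested. None of the 6 passed the threshold of limma in any comparison, and 0 to 2 of them reached an unadjusted p below 0.05 in each. Of 51 other erythroid genes, 1 passed: Car1, an early erythroid carbonic anhydrase, was higher in STZ than in Con (log2 fold change 1.42, SE 0.25, adjusted p = 0.0405), where 2 of the 51 were higher and 2 lower at an unadjusted p under 0.05. The most abundant of this list, Gpx1, Car2 and Prdx2, did not pass the threshold in any comparison. In A10-FMT against Con-FMT the list had a median of 0.51 with 46 of 51 above 0, and in A10-FMT against STZ a median of 0.36 with 44 of 51 above 0. The 5 erythroid progenitor genes, among them Cd44, Myb and Cd34, had none past the threshold, and their sum was 60.2 to 79.9 RPKM over the 18 libraries. Cd44, at a mean of 36.6 RPKM, was the largest part of that sum, and which spleen cells these transcripts came from was not tested. The sum of the 33 members ran from 2227 to 9750 RPKM. None of the 20 proliferation genes, led by Pcna, Birc5 and Mki67, passed the threshold in any comparison.

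With a covariate made from other erythroid genes, the members' medians lay between -0.10 and 0.22. The median log2 value of the 51 other erythroid genes was entered as this covariate in a fit chosen after the data were seen. Those genes belong to the same pathway and moved with the members, so smaller differences follow in part by construction. The cause of the members' differences was not tested by this fit. The members' median in A10-FMT against Con-FMT was then 0.05 in place of 0.63, in A10 against Con -0.10 in place of -0.57, in A10-FMT against STZ 0.13 in place of 0.50, and in STZ-A10 against A10 0.22 in place of 0.35. In STZ-A10 against STZ it turned from -0.23 to 0.10, with 24 of 33 above 0 in place of 7, and in Con-FMT against STZ from -0.08 to 0.09, with 23 above 0 in place of 10. No member passed the threshold by limma in this fit, and the most with an unadjusted p below 0.05 were 10, in STZ-A10 against STZ, against 3.75% of all genes. All the maturation genes were among those 10. Tspo2 kept a fold change of 0.76 in A10-FMT against Con-FMT (SE 0.29, adjusted p = 0.642), and Trim10 had the lowest adjusted p in STZ against Con, at -0.69 (SE 0.17, adjusted p = 0.0547). In the fit without the covariate, Trim10 in STZ against Con stood at 0.072 without STZ replicate 1. The covariate fit was not repeated without that library.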

How the data were processed

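RNA sequencing of 18 mouse spleens was used, 3 for each of 6 groups taken from the sample labels. According to the study's methods, poly(A) RNA was sequenced on an Illumina HiSeq instrument and reads were aligned to reference genes with SOAPaligner. The submitters' processing notes name Bowtie 0.12.2 and the mm10 build instead, and the annotation is not given in the sources used here. The deposited values are RPKM made by the authors. They hold no counts, so the depth is unknown and counting error could not be given. Every value column was matched to a sample by its title.

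Of 19326 table lines, 6 with 3 repeated names were left out. Values were taken as log2(RPKM + 1), and fold changes understate those of low genes. Genes with an RPKM of at least 1 in at least 3 libraries (12905) were fitted with limma 3.58.1 (trend) in R 4.3.3, with a coefficient per group, two-sided tests and Benjamini-Hochberg adjustment at 0.05. The fit was also run on simulated data, with noise independent between genes and changes added only to genes of below-median spread. That run does not measure the power for these members, which vary together. Gene positions are from GENCODE M21 (GRCm38) and upstream sequences from RefSeq (GRCm38.p6).

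The members and lists were chosen with earlier results of these data known. Given in full were members past the threshold (none) and the most abundant of each role, and in each comparison the 3 members with the largest fold change. Tspo2 and STZ replicate 1 were described further after their values were seen. Nothing in the labels ties a library to a cage or day, so effects of these are unknown and may lie within or between groups. The p-values measure the spread between libraries of a group, each taken here as 1 animal, whatever the source of that spread. In the transplant groups that spread is between recipients of a single donor pool, not between pools. The alternatives were quantile normalization, median centring, scaling without globin, other filters, no trend, 0.1 as the pseudocount, separate fits of each pair of groups, weighting of the arrays, a replicate block, each library left out, and an erythroid covariate added later.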

Additional observations from a re-analysis of the deposited data

How the results depend on the processing

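The members' median had the other sign in 12 of 142 alternatives, all in 4 of the 8 comparisons: STZ against Con (6, from -0.226 to -0.016), STZ-A10 against STZ (2, 0.097 and 0.176), Con-FMT against STZ (3, from 0.093 to 0.121) and the interaction (1, -0.087). The library medians had a pooled SD of 0.499 within groups, larger than the median of each of these 4 comparisons. It was also larger than the medians of STZ-A10 against A10 (0.353) and A10-FMT against STZ (0.497). Fits of the compared groups alone raised the members with an unadjusted p below 0.05 from 0 to 22 in A10 against Con and from 4 to 16 in A10-FMT against Con-FMT, with 0 past the threshold. With array weights, which gave A10-FMT replicate 3 a weight of 0.112 and A10-FMT replicate 1 a weight of 7.37, the members past the threshold were 6 in STZ against Con, 15 in STZ-A10 against A10, 11 in A10 against Con, 4 in Con-FMT against STZ, 27 in A10-FMT against Con-FMT and 33 across the 6 groups, where the same fit called 28.8%, 13.9%, 10.3%, 18.3%, 47.0% and 77.3% of all genes. Leaving out each library in turn gave 0 to 3 members in A10-FMT against Con-FMT and 0 to 1 across the 6 groups, both highest without A10-FMT replicate 2, and 0 in every other comparison. The members' median in A10-FMT against Con-FMT was 0.046 with the erythroid covariate. With each library left out in turn, Trim10 in STZ against Con ran from -1.014 to 0.072 and Tmcc2 in the interaction from -0.025 to 1.45, both turning without STZ replicate 1. The cause was not tested.

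The replicate numbers were not taken as pairs. The deviations of same-numbered libraries of different groups correlated at -0.385 to 0.571 (median 0.044), with 14 of 45 pairs over 0.1. Libraries with different numbers correlated at -0.584 to 0.511 (median -0.009), with 23 of 90 pairs over 0.1. Whether the numbers mark pairs was not tested. With the replicate number as a block, 0 members passed in any comparison and the median in A10-FMT against Con-FMT was 0.63. With 3 animals a group and no counts, differences under the confidence intervals given above cannot be resolved.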
